A study of Pleurotus ostreatus with 4 samples.

Results

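In the oyster mushroom Pleurotus ostreatus, 131 of 51131 assembled sequences were more abundant in the primordium than in the vegetative mycelium and more abundant again in the mature fruit body than in the primordium. A rise here means a difference of at least 1 in log2(FPKM + 1), where FPKM is the number of fragments scaled to the length of the sequence and the size of the library. The 131 sequences were chosen by these values: a rise from mycelium to primordium, a rise from primordium to mature fruit body, and at least 5 FPKM in the mature fruit body. The young fruit body was not used in the choice. All material came from wild-type strain P739, a white-rot basidiomycete, and each of the 4 stages (mycelium, primordium, young and mature fruit body) was represented by 1 RNA sequencing library. The labels do not say how many cultures or mushrooms went into a library, and no difference between stages could be set against replicate error, so no test is given.

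In mushroom-forming fungi, hyphae of the mycelium aggregate into knots and then into the primordium, a compact body in which stipe and cap tissue are laid down. The fruit body then expands, and gills carrying basidia, the cells in which meiosis takes place and on which spores form, develop and mature. A transcript that gains abundance at primordium formation and again later therefore spans stages in which new tissues are being added. In these bulk samples, more RNA per cell and more cells of a type carrying the RNA cannot be told apart. The identifiers, numbered contigs of assembly clusters or single unigenes, are not paired with gene names, and 0 of them matched the 11849 genes that RefSeq lists for the PC9 genome. No function is therefore given to any sequence, and the stages could not be checked against marker genes.

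Depth was nearly even, with 15541785 fragments behind the mycelial FPKM values, 15048631 behind those of primordium, 15400578 for the young and 15691317 for the mature fruit body. These denominators, the fragment numbers and the sequence lengths were recovered from the whole-fragment steps of the FPKM values. The ratios of FPKM between stages below are followed in parentheses by their 95% exact counting intervals, which cover counting error only and not the spread between mushrooms. The recovered length is the smallest that gave whole fragments in all 4 libraries, so true fragment numbers of single sequences could be multiples of those recovered. Summed over all sequences, the recovered fragments already made up 98.6% (primordium) to 98.8% (mycelium) of the denominators.

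As a group, the sequences grew from a trace of the mycelial library to a sizeable part of the mature one. Where 4 values are given in a row they run from mycelium through primordium and young fruit body to the mature one. The members took 0.120%, 0.960%, 2.03% and 5.06% of the fragments of the libraries. Their median abundance was 1.48, 8.27, 17.9 and 59.6 FPKM. The rule demanded the rises through mycelium, primordium and mature fruit body, so this growth is built in. Only the young fruit body values were not used by it. The lowest member values of the stages were 0, 1.06, 1.70 and 5.47 FPKM and the highest were 107, 993, 1442 and 3319 FPKM, so that the ranges of all stages overlapped. In mycelium, 52 members were under 1 FPKM and 7 of these had 0 fragments, 54 were between 1 and 5 FPKM, and 25 were at 5 FPKM or above. The 10 most abundant members made up 54.3% of the group's summed FPKM in mature fruit body, so the summed shares describe mainly those few.

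The rule took its members from 6612 sequences of at least 5 FPKM in the mature fruit body. Of these, 1236 (18.7%) rose from mycelium to primordium and 597 (9.03%) rose from primordium to mature fruit body, and the 131 that did both were 1.98%. Thus 10.6% of the sequences with the first rise had the second, and 21.9% of those with the second had the first. Both rises are measured against the same primordium library, so these shares are the outcome of the rule and are not read further. Only 3 more sequences had both rises but fewer than 5 FPKM in mature fruit body. Because adding 1 compresses differences between low values, folds of single sequences are given as ratios of FPKM.

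The second rise was at least as large as the first for 66 members and smaller for 65. The median first rise was 1.69 on the log2(FPKM + 1) scale, with a range from 1.01 to 7.89, and the median second rise was 1.81, from 1.00 to 7.09. A second rise of at least 4 on this scale was found for 12 members, and a first rise of that size for 15. Both rises were at least 2 for 22 members. In mature fruit body 48 members (36.6%) had at least 100 FPKM, against 16.7% of all 6612 sequences and 29.1% of the 1105 that had the first rise without the second. The rule used the mature level and the rise to it, so the members' excess is in part built in. Among the 100 most abundant sequences of each library were 0, 2, 4 and 14 members.

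The young fruit body placed the second rise. In 34 members the sequence rose from primordium to young fruit body and did not rise again by maturity (second rise before the young fruit body). In 40 members it rose only from young to mature fruit body (second rise after the young fruit body). A further 27 members rose in both intervals, and 30 reached their second rise in 2 steps that were each below 1. Thus 61 of 131 were at least 1 higher in young fruit body than in primordium, where 3.06% of the 6612 sequences were, and 67 of 131 were at least 1 higher in mature than in young fruit body, where 5.57% were. The rule fixes the sum of the 2 intervals at 1 or more, so counts above these percentages follow from it in part. The 4 groups are shown as profiles over the stages.

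**Figure D1:**
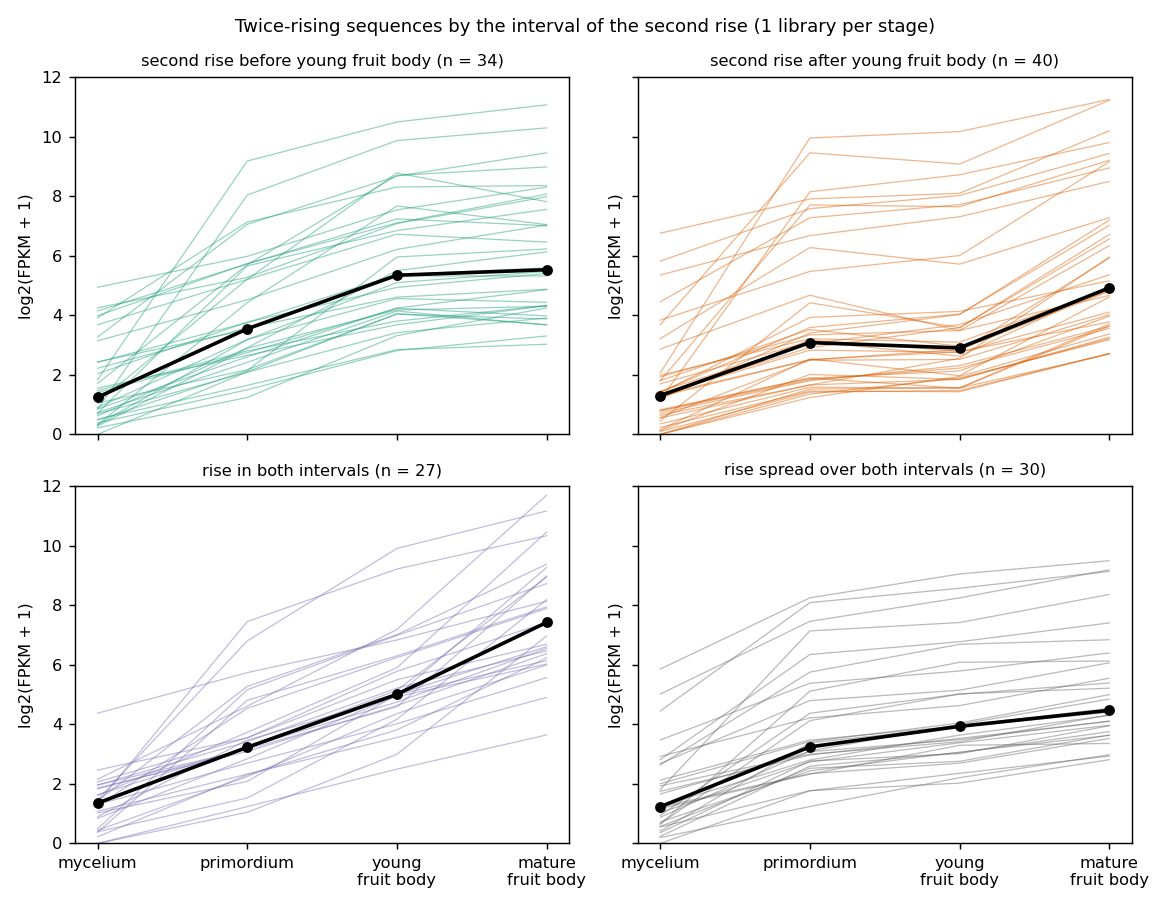
Abundance of the 131 twice-rising sequences as log2(FPKM + 1) (vertical axis) in the 4 stages (horizontal axis), 1 thin line per sequence and the group median in black, with 1 library per stage. The median flattens after young fruit body in the 34 sequences with an early second rise, is level between primordium and young fruit body in the 40 with a late one, and climbs at each stage in the 27 that rose in both intervals.

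The 34 sequences with the second rise before the young fruit body had median FPKM of 1.39, 10.7, 39.7 and 45.3 in the order of development. Unigene6500 (600 nt) was the most abundant of them, at 2.57, 579, 1442 and 2149 FPKM. It ranked 10584th by FPKM in mycelium and 15th in mature fruit body. Its steps were 225-fold (151 to 352), 2.49-fold (2.41 to 2.57) and 1.49-fold (1.46 to 1.52). CL1246.Contig6 (481 nt) stood at 0.803, 262, 934 and 1256 FPKM in the same order, and its mature level was 1564-fold that of mycelium (718 to 4264), with 6 fragments in mycelium behind the width of this interval. In Unigene6500 and CL1246.Contig6 the largest fold step was that into the primordium. The folds of CL1246.Contig6 are those of the contig and not of its cluster. CL1246.Contig1, which is no member, was higher in mycelium, at 14.1, 21.4, 22.0 and 19.6 FPKM.

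The next 2 sequences by mature level in this group had flatter first steps. CL1667.Contig2 (3186 nt) had 8.64, 132, 407 and 702 FPKM, with steps of 15.3-fold (13.9 to 16.9), 3.08-fold (3.0 to 3.17) and 1.72-fold (1.69 to 1.75). CL4365.Contig4 (5410 nt) had 2.27, 50.9, 415 and 505 FPKM, so that the step into young fruit body, 8.15-fold (7.89 to 8.42), was followed by one of 1.22-fold (1.20 to 1.24). In both, the last step was small beside the earlier ones but its counting interval lay above 1.

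Some early risers peaked in the young fruit body. In 10 of the 34 sequences the young fruit body held more FPKM than the mature one, and the counting interval of the fall lay wholly beyond 1-fold in 6 of them. Of all 6612 sequences, 50.7% were lower in mature than in young fruit body. Among the 83 early risers without the first rise, 19 (22.9%) were, against 29.4% of the 34, a difference that was not tested. Unigene7274 (862 nt) had 1.12, 36.0, 439 and 224 FPKM in the order of development, a 12.2-fold gain (11.1 to 13.4) and then a 1.96-fold loss (1.87 to 2.05). Unigene7066 (1035 nt) had 0.249, 20.5, 203 and 131 FPKM, with a loss of 1.55-fold (1.46 to 1.63) at the end. CL3637.Contig4 (2138 nt), at 0.662, 4.35, 16.7 and 11.7 FPKM, lost 1.42-fold (1.25 to 1.62). These 3 stood the furthest above their mature level among the members, and all remained above their primordium level at maturity, as the rule requires.

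The 40 sequences with the second rise after the young fruit body had median FPKM of 1.47, 7.48, 6.49 and 29.3. Although the group median was lower in young fruit body than in primordium, the median change per sequence was upward, by 0.19 on the log2(FPKM + 1) scale. CL3192.Contig2 (1135 nt) was the most abundant, at 3.17, 993, 1152 and 2437 FPKM. It held 48.1% of the mature FPKM of its cluster, which did not make the second rise when its contigs were summed. CL3192.Contig2 was 313-fold higher in primordium than in mycelium (241 to 414). It changed by 1.16-fold (1.14 to 1.18) into the young fruit body and was then 2.12-fold higher at maturity (2.08 to 2.15). Unigene242 (1771 nt) resembled it, with 1.24, 283, 421 and 893 FPKM and a last step of 2.12-fold (2.07 to 2.17). For both, the step between primordium and young fruit body was the smallest of the 3, and the one into the primordium by far the largest.

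In other late risers the second rise was the larger. CL4273.Contig1 (1035 nt) was already at 107 FPKM in mycelium, the highest mycelial level of any member, and then at 239, 273 and 1175 FPKM. Its steps were 2.23-fold (2.11 to 2.36), 1.14-fold (1.09 to 1.19) and 4.30-fold (4.16 to 4.45). CL3491.Contig1 (1477 nt) had 0.566, 2.16, 4.88 and 61.0 FPKM, and its last step of 12.5-fold (10.3 to 15.3) far exceeded the preceding one of 2.26-fold (1.60 to 3.24). Its first rise was the smallest among the members, 1.01 on the log2(FPKM + 1) scale.

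A dip in the young fruit body was found among the late risers. In 15 of the 40 the young fruit body had less FPKM than the primordium, with a counting interval wholly below 1 in 9 of them. All members below primordium in young fruit body were late risers, which the definition of the groups requires, and 42.4% of the 6612 sequences were lower in young fruit body than in primordium. A closer set is the 226 late risers without the first rise, of which 35 (15.5%) dipped, against 37.5% here. The dip is measured from the primordium library that set the first rise, and the difference was not tested. Unigene8240 (420 nt) dipped the furthest, with 6.28, 24.5, 10.2 and 80.0 FPKM, a loss of 2.40-fold (1.79 to 3.26) followed by a gain of 7.84-fold (6.06 to 10.3). It was the 1 member with a fall of at least 1 on the log2(FPKM + 1) scale in that interval. Unigene8414 (703 nt), at 0.366, 20.4, 11.0 and 93.6 FPKM, lost 1.86-fold (1.48 to 2.34) and then gained 8.52-fold (7.04 to 10.4).

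Dips were found in scarce and in abundant sequences. CL4669.Contig1 (1110 nt) was a scarce example, at 0.116, 4.79, 2.92 and 23.5 FPKM, with a loss of 1.64-fold (1.14 to 2.38) from 80 to 50 fragments. CL2725.Contig1 (641 nt) was an abundant one, at 11.8, 703, 541 and 2391 FPKM. Its loss of 1.30-fold (1.25 to 1.35) was followed by a gain of 4.42-fold (4.29 to 4.56), and it ranked 12th in the mature library.

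The 27 sequences that rose in both later intervals climbed at every stage by definition, with median FPKM of 1.56, 8.37, 31.2 and 170.5. They took 0.00856%, 0.0773%, 0.313% and 1.86% of the fragments. Unigene7400 (1025 nt) had 3.45, 23.4, 145 and 3319 FPKM, the last of these being the highest value of any member in any stage. Its steps were 6.78-fold (5.09 to 9.17), 6.18-fold (5.53 to 6.92) and 22.9-fold (22.0 to 23.9), and its rank moved from 8805th in mycelium to 7th in mature fruit body. The last step was the largest, although the sequence rose in all 3.

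A last step of more than 10-fold was found for 7 of these 27 sequences and for 2 of the 40 late risers. The largest was that of CL3980.Contig3 (3668 nt), at 2.07, 12.3, 58.7 and 1404 FPKM, which gained 23.9-fold (23.1 to 24.8). The contigs of cluster CL3154 also made their largest step at maturity. CL3154.Contig3 (571 nt) had 0.789, 6.17, 30.2 and 615 FPKM and a last step of 20.3-fold (18.0 to 23.1), and CL3154.Contig2 (2075 nt) had 2.88, 7.97, 23.0 and 504 FPKM and one of 21.9-fold (20.3 to 23.6). Their intervals for the last step overlap.

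Other sequences of the group climbed mostly before maturity. CL1667.Contig1 (585 nt) stood at 1.76, 111, 959.9 and 2297 FPKM, with steps of 62.8-fold (38.5 to 110.3), 8.68-fold (8.13 to 9.29) and 2.39-fold (2.33 to 2.45). CL4132.Contig2 (1530 nt) had 1.56, 174, 594 and 1291 FPKM and steps of 112-fold (81.1 to 159), 3.41-fold (3.29 to 3.53) and 2.17-fold (2.13 to 2.22). In these sequences each step was smaller than the one before it.

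The remaining 30 sequences gained their second rise in 2 smaller steps, with median FPKM of 1.35, 8.51, 14.3 and 21.2. Their second rises reached 1.74 at most on the log2(FPKM + 1) scale, which follows in part from the limit of 1 on each interval. Unigene1321 (854 nt) was the most abundant, at 56.9, 303, 529 and 721 FPKM, with steps of 5.33-fold (4.93 to 5.77), 1.74-fold (1.68 to 1.81) and 1.36-fold (1.32 to 1.41). CL2069.Contig3 (1969 nt) had 31.4, 175, 303 and 584 FPKM, and Unigene5532 (839 nt) had 20.8, 271, 379 and 562 FPKM. All 30 were higher in each stage than in the one before, which the definition of the group requires.

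The largest gains over mycelium in this gradual group were those of Unigene7202 and CL273.Contig20. Unigene7202 (1984 nt) had 2.50, 139.9, 170.2 and 328 FPKM and was 131-fold higher in mature fruit body than in mycelium (105 to 167). CL273.Contig20 (3427 nt), at 0.563, 33.7, 66.8 and 68.9 FPKM, made nearly its whole second rise by the young fruit body and missed the early group narrowly. Its last step was 1.03-fold with a counting interval from 0.985 to 1.08, so the young and the mature fruit body could not be told apart at this depth. CL273.Contig20 held 30.1% of the mature FPKM of its cluster. CL273.Contig1, which is no member, stood at 38.3, 42.7, 84.4 and 113 FPKM, so the gain over mycelium is that of the contig.

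**Figure D2:**
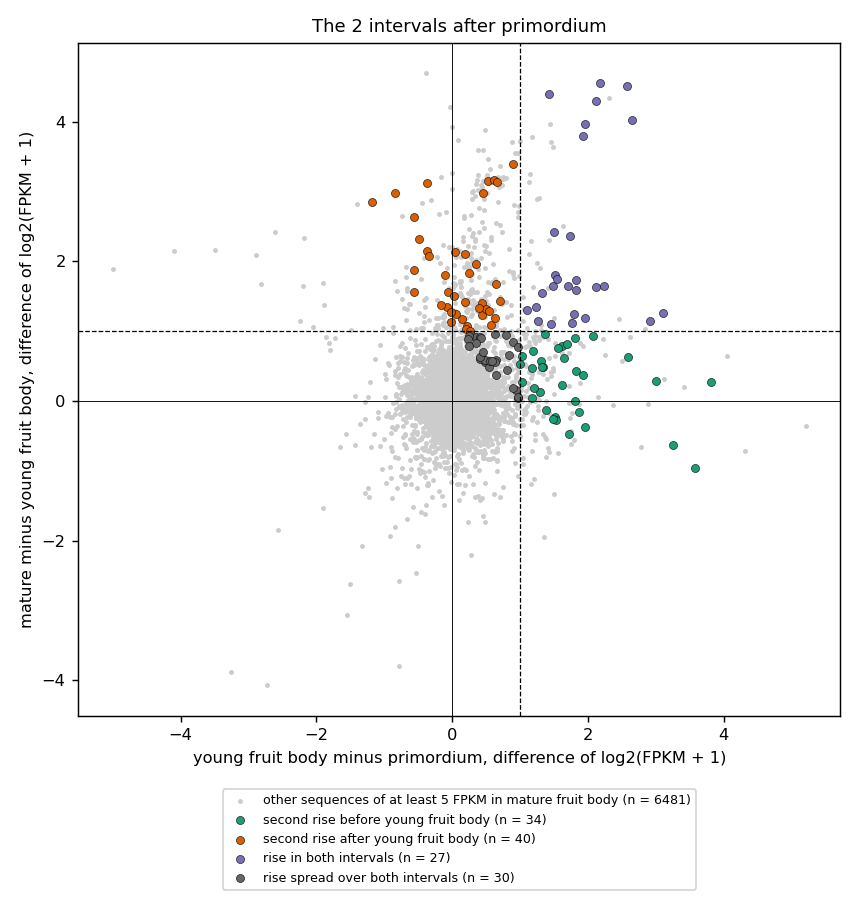
Difference of log2(FPKM + 1) from primordium to young fruit body (horizontal axis) and from young to mature fruit body (vertical axis) for the 131 twice-rising sequences, coloured by the interval of the second rise, and for the other sequences of at least 5 FPKM in mature fruit body in grey. The dashed lines mark a difference of 1; the 34 early risers lie to the right, the 40 late risers at the top, the 27 that rose in both intervals in the upper right corner and the 30 gradual ones inside both lines.

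Without a threshold, timing can be read as the share of the log2(FPKM + 1) gain from primordium to mature fruit body that had been reached in young fruit body. A share below 0 marks a dip and a share above 1 a peak in the young fruit body. Over the 131 sequences the median share was 0.46, with quartiles of 0.22 and 0.67 and a range from -0.71 to 1.38. It was at least 0.5 for 59 members and lower for 72. In FPKM, 106 members were higher in each stage than in the stage before, 15 dipped and 10 peaked in the young fruit body. The definitions require a climb at each stage of the gradual sequences and of those that rose in both intervals.

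For comparison, 466 sequences of at least 5 FPKM in mature fruit body had the second rise without the first. Their median share was 0.30, with quartiles of 0.13 and 0.57, and 148 of them (31.8%) had reached at least 0.5 in young fruit body, against 45.0% of the twice-rising sequences. By group, 17.8% of the 466 rose before the young fruit body, 48.5% after it, 6.44% in both intervals and 27.3% in smaller steps. Among the 131 the same percentages were 26.0%, 30.5%, 20.6% and 22.9%. The median mature level was 59.6 FPKM in the twice-rising sequences, 12.3 in the 466 and 39.9 in the 1105 sequences with the first rise only, and 9.66% of the 466 reached 100 FPKM. With 1 library per stage these differences in timing could not be tested, and the part of abundance in them was not tested. The share is also measured from the primordium library that set the first rise, so the choice of members and the share are not independent.

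**Figure D3:**
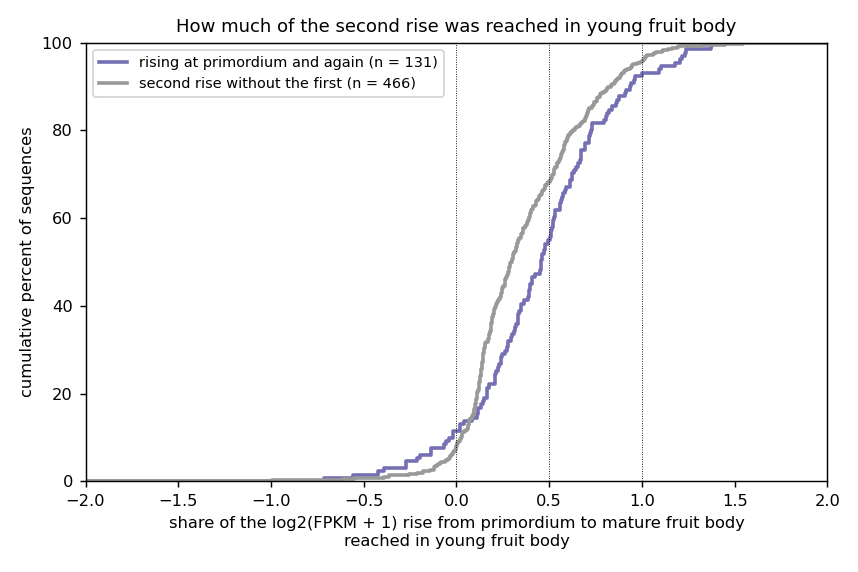
Cumulative percent of sequences (vertical axis) by the share of the log2(FPKM + 1) gain from primordium to mature fruit body that was reached in young fruit body (horizontal axis), for the 131 twice-rising sequences and the 466 with the second rise only. Dotted lines mark shares of 0, 0.5 and 1; the median was 0.46 in the first set and 0.30 in the second.

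Several members came from 1 assembly cluster, whose contigs share sequence and are not independent. The 131 members were 85 contigs from 60 clusters and 46 unigenes, or 106 separate clusters and unigenes. Contigs made up 64.9% of the members and 55.0% of the 6612 sequences. In 22 clusters at least 2 contigs were members, 47 in all, and 3 of these clusters (CL581, CL2069 and CL2696) had 3. All member contigs fell into the same timing group in 15 of the 22 clusters. In the other 7 (CL1246, CL1667, CL2069, CL2598, CL2696, CL31 and CL3332) they fell into a pair of groups. The sources used here do not say how fragments matching several contigs were counted.

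Member contigs of a cluster could differ widely in level and still keep the same timing. CL2983.Contig2 (2769 nt) had 1.70, 37.7, 128 and 664 FPKM, and CL2983.Contig1 (1548 nt) had 0.166, 3.95, 13.0 and 74.0 FPKM. Their mature levels were 17.6-fold (16.8 to 18.6) and 18.7-fold (15.2 to 23.4) those of primordium. The share of the second rise reached in young fruit body was 0.42 and 0.38. In CL5083 the member contigs were closer in level, and the share was 0.67 for both. CL5083.Contig1 (2215 nt) had 29.7, 62.2, 185 and 316 FPKM and CL5083.Contig2 (5234 nt) 18.0, 37.7, 134 and 252 FPKM. CL5083.Contig3, which is no member, made neither rise, at 7.09, 11.6, 12.3 and 9.48 FPKM.

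First rises within a cluster were less alike in some cases. CL5786.Contig1 (659 nt) had 0.293, 27.0, 77.7 and 245 FPKM, and CL5786.Contig2 (1026 nt) 2.63, 7.51, 23.8 and 81.9 FPKM. The former was 92.3-fold higher in primordium than in mycelium (31.2 to 450.2, from 3 mycelial fragments) and the latter 2.85-fold (1.99 to 4.16), while their shares in young fruit body were 0.48 and 0.47. CL1718.Contig1 (1410 nt), at 0.639, 49.6, 114 and 188 FPKM, and CL1718.Contig2 (1266 nt), at 0.610, 3.25, 9.69 and 14.0 FPKM, were alike in mycelium and differed from primordium onward. Their first steps were 77.6-fold (46.0 to 142) and 5.34-fold (2.85 to 10.9).

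The clearest split in timing was in CL3332, between contigs of low depth. CL3332.Contig1 (935 nt) had 0.482, 4.62, 4.72 and 15.2 FPKM, with a share of 0.02, and CL3332.Contig2 (879 nt) had 0.146, 1.36, 3.62 and 6.89 FPKM, with a share of 0.56. Their steps into the young fruit body were 1.02-fold (0.717 to 1.46) and 2.66-fold (1.52 to 4.85), resting on 65 and 68 fragments and on 18 and 49. In CL1667 and CL1246 the group names differed although the shares were close, from 0.67 to 0.71 and from 0.72 to 0.81.

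**Figure D4:**
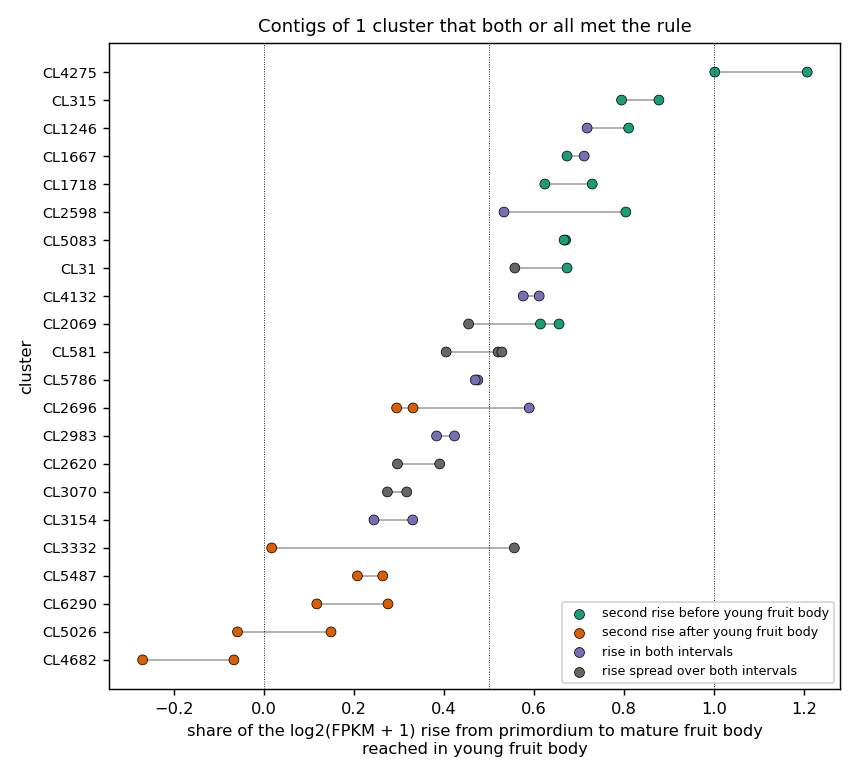
Share of the log2(FPKM + 1) gain from primordium to mature fruit body reached in young fruit body (horizontal axis) for the member contigs of the 22 clusters with at least 2 members (vertical axis), 1 point per contig, coloured by timing group and joined by a line within a cluster. Contigs of CL5083 and CL5786 nearly coincide, and those of CL3332 lie furthest apart, at 0.02 and 0.56.

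The 60 clusters held 239 further contigs that were not members, of which 44 had at least 5 FPKM in mature fruit body. Of these 44, 26 (59.1%) had the second rise without the first, 9 (20.5%) had the first without the second and 9 had neither. Of all 6612 sequences, 466 had the second rise only and 1105 the first only. The 44 share sequence with members that were chosen for both rises, so their counts are not independent of that choice. No contig among them was lower by at least 1 on the log2(FPKM + 1) scale in either step. The median levels of the 26 were 1.32, 1.81, 4.37 and 8.81 FPKM. Their first differences were between -0.41 and 0.94 with a median of 0.54, so on this scale they stayed under the threshold of 1. Adding 1 compresses low values, and in FPKM some of the 26 did rise from mycelium to primordium. CL2598.Contig4 rose 15.0-fold (3.79 to 129.5, from 2 mycelial fragments) and CL4627.Contig1 6.51-fold (3.32 to 14.2). CL3491.Contig2 (2824 nt) changed less in that step, by 1.29-fold (1.03 to 1.62). It stood at 3.24, 4.17, 6.37 and 56.9 FPKM beside its member contig at 0.566, 2.16, 4.88 and 61.0. When the FPKM of all contigs of a cluster were summed, 48 of the 60 clusters still met the rule. CL3192 was among the 12 that did not.

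The 7 members with 0 fragments in mycelium, which allows up to 3, were CL2696.Contig1, CL2696.Contig2, CL5430.Contig2, Unigene2181, Unigene3381, Unigene3854 and Unigene10021. Set against that limit, their mature values were 7.59 (Unigene10021) to 282 times (Unigene3854) the mycelial one. With counting error in both libraries, the lower limits of the exact intervals were 5.69-fold and 229-fold. Unigene3854 (438 nt) had 0, 1.06, 6.97 and 124 FPKM, with 7 fragments behind the primordium value. For its first rise the lower limit of the exact interval was 1.49-fold, while its step from young to mature fruit body was 17.8-fold (13.3 to 24.4). Depth limited the first rise more than the second: 52 members had fewer than 20 fragments in mycelium and 9 had fewer than 20 in primordium.

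At the thresholds of the rule, members and other sequences were close. By second rise, the members nearest to 1 were CL5328.Contig1 (1.00, at 8.29, 76.5, 51.6 and 154 FPKM) and CL273.Contig20 (1.01), and just outside were Unigene2887 (1.00 after rounding, at 80.1, 278, 439 and 557 FPKM) and CL1789.Contig2 (0.99). By first rise, CL3491.Contig1 (1.01) and Unigene9175 (1.02, at 0.165, 1.36, 8.97 and 18.0 FPKM) were just inside, and CL2339.Contig1 and CL5306.Contig2 (both 0.97) just outside. By mature level, CL1983.Contig4 (5.47 FPKM) and CL3370.Contig2 (5.56 FPKM) were inside, and CL612.Contig17 (4.57 FPKM) and CL2618.Contig4 (4.54 FPKM) outside. Counting error alone spans the margin for CL5328.Contig1, whose ratio of mature fruit body to primordium had an interval from 1.93 to 2.11.

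Outside the members, the sequences of at least 5 FPKM in mature fruit body whose 4 values followed the members' median profile most closely were CL1181.Contig3, CL2371.Contig4 and Unigene7966, each with Pearson's r of 1.00 over the 4 libraries. They rose much less. CL1181.Contig3 (7596 nt) had 7.34, 8.84, 9.81 and 11.6 FPKM, CL2371.Contig4 (896 nt) had 1.87, 3.04, 3.99 and 5.90 FPKM, and Unigene7966 (3137 nt) had 36.3, 45.8, 51.9 and 62.4 FPKM. With 4 points, r describes the shape only and not the size of a rise.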

How the data were processed

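RNA was measured in 4 libraries, 1 per stage. Per the labels' protocols, RNA was harvested with Trizol from frozen material for Illumina sequencing. The authors deposited FPKM with 4 decimals, per the file headers; the sources used here name no aligner, assembler or counting tool. Columns were assigned through the short stage names in the sample descriptions. Denominators, lengths (from 200 nt) and whole fragments were recovered from the FPKM steps, with whole numbers accepted within 1.02 times the rounding error of 5e-05 FPKM. All 50567 sequences above 0 gave whole fragments. In a subset above 0.5 FPKM in every library the share was 100%, against 0.45% after small unequal shifts of the denominators. The recovery and the rule were run on simulated data with counting noise only. The changes planted there were early or late second rises, well above the thresholds and not in scarce sequences. That run therefore does not cover scarce sequences, those near a threshold, the other timing groups or the spread between mushrooms. Counting intervals are exact binomial at 95%. The members were chosen with earlier results of these data known. Named are, per timing group, the 4 members of highest mature FPKM and the 2 of largest gain over mycelium, members sharing a cluster, the nearest to each threshold, the 3 furthest outside primordium or mature level in young fruit body, and the 3 most similar other sequences; not all of them are spelled out. Analyses used Python 3.11.15 with scipy 1.17.1.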

Additional observations from a re-analysis of the deposited data

How the results depend on the processing

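Counts and the median share kept within 1.5 times and 0.05 of the reported values with no minimum FPKM and with upper-quartile, median-of-ratios or equal-sum scaling, which gave 121 to 134 sequences, and with FPKM summed over clusters, which gave 100 clusters and unigenes. Of the 131 members, 117, 118 and 129 were kept under the 3 scalings. Upper-quartile scaling shifted the median log2 difference of sequences of at least 5 FPKM in mature fruit body by 0.32 from mycelium to primordium (0.12 and 0.16 under the other scalings) and by -0.14 from primordium to mature fruit body. From primordium to young fruit body the shifts were -0.092 (upper quartile), -0.085 (median of ratios) and -0.0058 (equal sums). Dips and peaks in young fruit body were not recounted under the scalings. A pseudocount of 0.1 gave 194 sequences, with 65 late risers. A pseudocount of 5 admitted 51, with 14 early, 15 late, 11 in both intervals and 11 gradual, and left 1 cluster with at least 2 member contigs. At least 20 FPKM in mature fruit body left 25 late and 16 gradual risers and 10 such clusters. Requiring both rises, and each interval, to reach 2 left 22 sequences, 5 early, 6 late, 3 in both and 8 gradual, with 2 such clusters and a median share of 0.51. Stricter settings lower the counts by construction. Counting intervals of both rises lay wholly above 2-fold for 97 members, 14 of them gradual. The median share of the sequences with the second rise only was 0.23 to 0.35 under the alternatives in which it was computed, below that of the members in each. Over 1185 recalculated steps of 79 named sequences, 5 differences below 1 changed sign, all of them under a scaling. Another pseudocount cannot change a sign, and the scalings moved no step by more than 0.335. No difference of at least 1 could therefore have changed sign, so its absence is not read as a result. No paired analysis was possible because every stage is a single library, and none could be left out.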

Other observations

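Cluster CL3192 held contigs that were both abundant in fruiting tissue but differed in profile, and they were chosen after their values were seen. CL3192.Contig1 (718 nt), which is no member, stood at 3.32, 3048, 1934 and 2632 FPKM, beside 3.17, 993, 1152 and 2437 FPKM for the member CL3192.Contig2. The former was 3.07 times as abundant as the latter in primordium, 1.68 times in young fruit body and 1.08 times in mature fruit body. From primordium to mature fruit body CL3192.Contig1 changed by -0.21 on the log2(FPKM + 1) scale. The summed FPKM of the cluster did not make the second rise either. In cluster CL1667, likewise chosen after its values were seen, CL1667.Contig3 (3831 nt) had the second rise without the first, at 11.1, 8.29, 50.1 and 114 FPKM. It was 0.745-fold in primordium relative to mycelium (0.661 to 0.839), whereas the member contigs CL1667.Contig2 and CL1667.Contig1 were 15.3-fold and 62.8-fold higher there.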
